A study of Mus musculus with 2 samples.

Results

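Genes for enzymes that remove superoxide and peroxides (Sod1, Sod2, Cat, Gpx1, Gpx4, Prdx1 and Prdx6) and for the paraoxonases (Pon1, Pon2 and Pon3) were examined in liver RNA of apolipoprotein E-deficient male mice with and without squalene. They were chosen by name, and a gene was used where a probe set of the array carried its symbol alone. By that rule 8 of the 10 genes were found, on 14 probe sets, out of 12393 genes on 20380 such probe sets. The 5 probe sets of Prdx1 also carry a second symbol and were left out, and Prdx6 has no probe set with its symbol alone in the annotation used here. For each gene the brightest probe set over both pools is reported first and the others beside it.

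All 8 genes read nearly alike in both pools. Their log2 ratios of squalene over control ran from -0.35 (Pon3) to 0.05 (Sod1), so 0 lay past 0.5 in either direction. That share was 21.9% among the 7354 measured genes, and 14.2% among the 6462 genes that, like these 8, reached the array median in both pools. Among the 1664 genes in the brightest of 5 signal classes, which holds 6 of these 8, it was only 6.07%. None of the 8 passed the log2 limit of 1.5 that the study states as its screen, which 2.54% of measured genes and 0.124% of those read in both pools did. The 3 paraoxonases had the lowest ratios, with signals 12.8% to 21.4% lower in the squalene pool. The 5 superoxide and peroxide genes lay between -0.12 and 0.05. These signs held on the scale of the deposited values: scaled to the hybridization spike-ins, 7 of the 8 genes, Pon1 and Pon2 among them, lay above 0, while Pon3 stayed below it.

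Both pools came from male mice deficient in apolipoprotein E on a mixed C57BL/6J and OLA129 background, kept on chow. The label gives an age of 2 months for each, without saying at which point of the treatment. For 10 weeks the controls drank water with 1% glycerol, and the treated mice drank the same with squalene, a precursor of cholesterol, at 1 g per kg body weight per day. Livers were washed free of blood and frozen, and RNA pooled per group was hybridised to 1 array each, so there is no replicate and no test. The labels used here do not say how many animals a pool held or which part of Apoe is missing.

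Superoxide dismutases turn superoxide into hydrogen peroxide, which catalase, glutathione peroxidases and peroxiredoxins then reduce to water. Liver carries high amounts of these enzymes because its mitochondria, peroxisomes and cytochromes P450 release both oxidants. Paraoxonases are calcium-dependent lactonases. Pon1 and Pon3 are made chiefly by hepatocytes. Pon1 travels on high density lipoprotein (HDL), whereas Pon2 stays inside cells.

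The deposited values had a 2%-trimmed mean signal of 200.1 on both arrays, with medians of 39.9 (control) and 41.4 (squalene). MAS5 can scale arrays to a common trimmed mean, so this match does not show that the arrays were alike before scaling. The spike-ins, RNAs that are meant to be added equally to each hybridization, were lower with squalene on all 18 of their probe sets (median log2 ratio -0.26). Scaling to them raises the ratio of every gene by 0.26 and moves the median of all measured genes from 0.01 to 0.26. A gene was called measured when its signal reached the array median in at least 1 pool, and all 8 genes passed in both pools. Hepatocyte transcripts were bright in both pools, with Alb, which encodes albumin, at 16656 in the control pool and 14625.1 with squalene. Apoe read 141 and 130.6, which does not check the deletion.

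**Figure D1:**
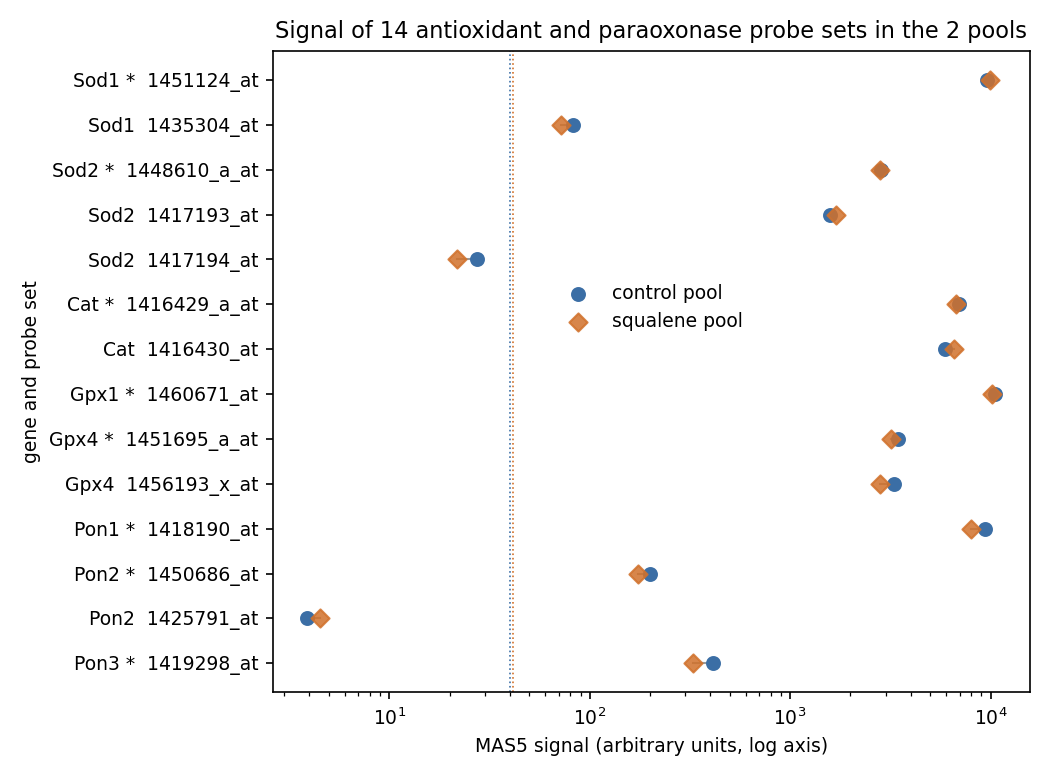
MAS5 signal (x axis, log scale, arbitrary units) of the 14 probe sets of 8 genes in the control pool (circles) and the squalene pool (diamonds), 1 array each, with dotted lines at the array medians of 39.9 and 41.4 and an asterisk at the probe set used for each gene. Among the probe sets with an asterisk, the paired symbols nearly coincide for Sod1, Sod2, Cat and Gpx1 and lie apart for Pon3, at 414.5 and 325.9. The dimmest Sod2 probe set, at 27.5 and 21.7, also lies apart.

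Sod1, the copper and zinc dismutase of the cytosol, read 9629.5 in the control pool and 9939.3 in the squalene pool. Its log2 ratio was 0.05, a signal 3.22% higher with squalene. A second and far dimmer probe set of Sod1 read 82.9 and 72.2, a log2 ratio of -0.20. The signs of the 2 probe sets were thus opposite, and both sizes were small.

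Sod2, the manganese dismutase of mitochondria, read 2847.8 and 2793.6, a log2 ratio of -0.03. Its second probe set gave 1576.8 and 1691.7 (0.10). The third, at 27.5 and 21.7, was below the array median in both pools and was not measured. Squalene and control were thus within 7.29% of each other on both measured probe sets of Sod2, in opposite directions.

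Catalase, the peroxisomal enzyme that splits hydrogen peroxide, read 6937.7 in the control pool and 6701.7 with squalene on the Cat probe set used here (-0.05). The other Cat probe set read 5921.2 and 6583.6, a log2 ratio of 0.15. The 2 Cat probe sets thus put the pools in opposite order.

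Gpx1, the abundant selenium-dependent glutathione peroxidase of cytosol and mitochondria, read 10559.7 and 10111 on its only probe set (-0.06). Gpx4, which reduces lipid hydroperoxides within membranes and so holds back ferroptosis, read 3467 and 3193.8 (-0.12). On its other probe set, whose suffix marks possible cross-hybridisation, Gpx4 read 3313.4 and 2818.4 (-0.23). Gpx4 was the only gene here with over 1 measured probe set whose probe sets shared a sign. Of the 4 such genes, the other 3 (Sod1, Sod2 and Cat) had probe sets on both sides of 0.

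The sizes can be read against how far probe sets of a shared gene differ in log2 ratio, the only spread that these arrays hold. It compares probe sets on the same 2 arrays, so it leaves out variation between animals, pools and hybridizations. Measured probe sets were split into 5 equal classes of mean signal, and in the brightest class this SD was 0.15 (994 probe sets of 422 genes). Sod1, Sod2, Cat, Gpx1 and Gpx4 lie in that class with ratios smaller than 0.15, and Pon1 lies in it with a larger one (-0.23). The second probe sets of Cat (0.153) and Gpx4 (-0.23) in that class were also past 0.15 in size. Among the 1664 genes in the brightest class, 56.7% lay below 0 and 6.07% past 0.5 in either direction. By number, 7 of the 8 genes lay below 0, beside 49.3% of all measured genes. After quantile normalization or loess that count was 4 of 8, with Sod2, Cat and Gpx1 slightly above 0.

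Each gene was also set beside the 100 measured genes closest to it in mean signal. Of those around Sod1, 81 had a ratio at least as far from 0, and so did 86 around Sod2, 80 around Cat, 72 around Gpx1 and 52 around Gpx4. The neighbours of Sod1 and Gpx1 had a median of -0.11, and those of Cat a median of -0.12. Bright genes were thus slightly lower as a class on the squalene array, and Sod1, Cat and Gpx1 lay above the median of theirs.

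**Figure D2:**
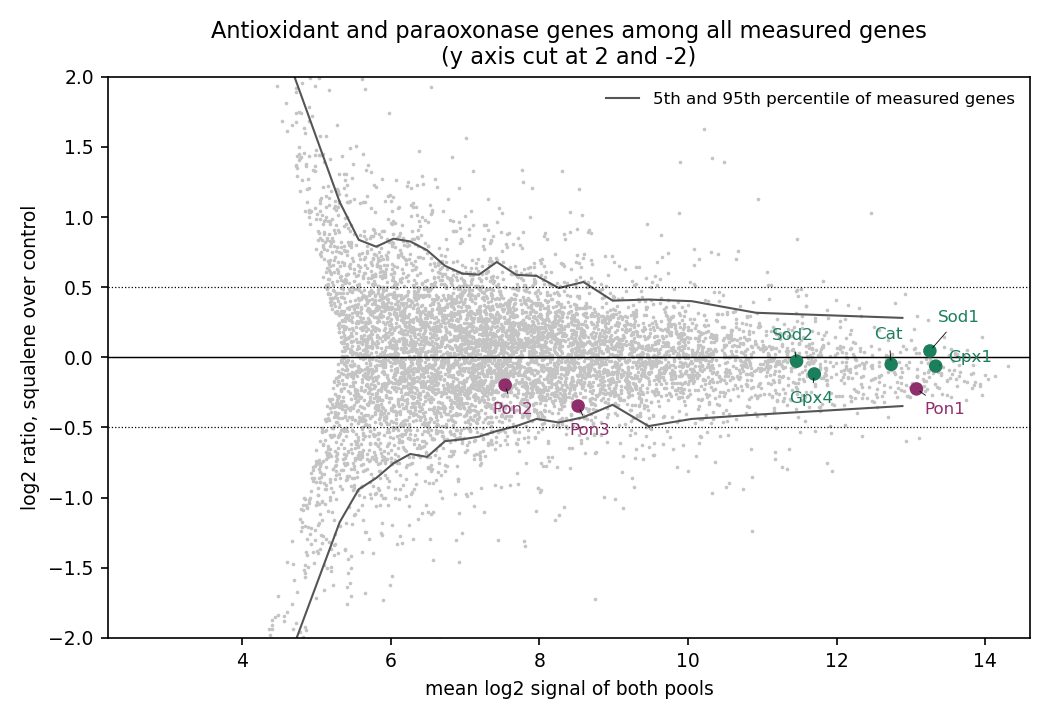
Log2 ratio of squalene over control (y axis) against the mean log2 signal of both pools (x axis) for 7354 measured genes (grey), of which 119 lie beyond the y axis, with lines at the 5th and 95th percentile of 20 signal classes and dotted lines at 0.5 and -0.5. The 5 superoxide and peroxide genes (green) lie within 0.12 of 0, and the 3 paraoxonases (purple) lie below 0 but above the 5th percentile line.

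The paraoxonase genes were all lower in the squalene pool on the deposited scale. Pon1, whose product on HDL hydrolyses lactones and organophosphates, read 9332.3 in the control pool and 7984.6 with squalene. That is a log2 ratio of -0.23 on its only probe set, or 14.4% lower. Of the 100 genes nearest to Pon1 in signal, 15 had a lower ratio, and 19 one at least as large in either direction. The median of these 100 was itself below 0, at -0.09.

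Pon3, another lactonase of this family, read 414.5 in the control pool and 325.9 with squalene. Its log2 ratio of -0.35, or 21.4% lower, was the largest in size among the 8 genes and again rests on 1 probe set. The SD between probe sets of a gene was 0.24 in its signal class. Of the 100 genes nearest to Pon3, 7 had a lower ratio, and 25 one at least as large in either direction.

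Pon2, the intracellular paraoxonase, read 199.2 and 173.7 (-0.20, or 12.8% lower). The SD in its signal class was 0.31, larger than the ratio, and 53 of its 100 nearest genes had a ratio at least as large in either direction. Its second probe set, at 3.9 and 4.5 (0.21), was far below the array median and was not measured. Averaged over both probe sets, the Pon2 ratio was 0.00.

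The direction of the paraoxonases depended on the scale. After quantile normalization Pon1, Pon2 and Pon3 stood at -0.11, -0.26 and -0.38, and after loess at -0.13, -0.24 and -0.38. Scaled to the spike-ins, they stood at 0.03, 0.06 and -0.09. Pon3, which has 1 probe set, was below 0 under the 4 scalings tried. Because spike-in scaling adds the same 0.26 to every gene, the distance of each paraoxonase from the median of all measured genes is the same on both scales.

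The 3 paraoxonase genes lie next to each other on chromosome 6 in the RefSeq annotation (GRCm38.p6), in the order Pon1, Pon3 and Pon2, with Ppp1r9a and Asb4 as the flanking protein-coding genes. Because these neighbours were lower together on the deposited scale, the 250 RefSeq bases before each annotated start are shown, 5′ to 3′ on the minus strand that carries the genes. Capitals mark matches, on either strand, to the CCAAT box (CCAAT), the GC box (GGGCGG), the TATA box (TATAAA), the nuclear receptor motif AGGTCA or the antioxidant response element core (TGACNNNGC). Their positions are chr6:5193947-5194196 for Pon1, chr6:5256234-5256483 for Pon3 and chr6:5298341-5298590 for Pon2.
Pon1: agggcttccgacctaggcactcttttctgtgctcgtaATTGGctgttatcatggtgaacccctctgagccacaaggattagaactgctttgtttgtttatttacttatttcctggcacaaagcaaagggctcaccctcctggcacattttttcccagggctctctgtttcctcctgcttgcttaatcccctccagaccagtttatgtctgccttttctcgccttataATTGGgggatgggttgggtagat
Pon3: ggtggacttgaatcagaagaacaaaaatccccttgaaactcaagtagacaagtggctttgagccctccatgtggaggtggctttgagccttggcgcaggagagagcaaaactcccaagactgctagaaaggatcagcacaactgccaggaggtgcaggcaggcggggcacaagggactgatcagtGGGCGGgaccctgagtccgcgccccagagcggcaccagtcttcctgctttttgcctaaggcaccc
Pon2: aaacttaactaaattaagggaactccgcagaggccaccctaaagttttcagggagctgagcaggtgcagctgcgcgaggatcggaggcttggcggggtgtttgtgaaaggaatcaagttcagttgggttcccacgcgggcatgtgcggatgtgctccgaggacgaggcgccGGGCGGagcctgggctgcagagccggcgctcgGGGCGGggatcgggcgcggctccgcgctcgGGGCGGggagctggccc

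The 3 sequences differ in what they hold. That of Pon1 has 2 inverted CCAAT boxes and no GC box, at 47.6% G and C. That of Pon3 has 1 GC box at 56.8%, and that of Pon2 has 3 GC boxes at 65.6%. None of the matches overlapped. The CCAAT box was found in 33.8% of the 32851 promoters of the same length, and the GC box in 32.7%. The antioxidant response element core, a site of the stress regulator NRF2, was in 10.2% of all promoters and in none of these 3 windows. The TATA box was in 12.4% and the AGGTCA motif in 14%, and both were absent from them. Of the 9 genes with a promoter entry, Prdx1 included, 2 (Sod1 and Prdx1) held the antioxidant response element core, 7 a GC box and 5 a CCAAT box, counting all 4 annotated starts of Gpx4. A match describes letters in the window and shows no binding.

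**Figure D3:**
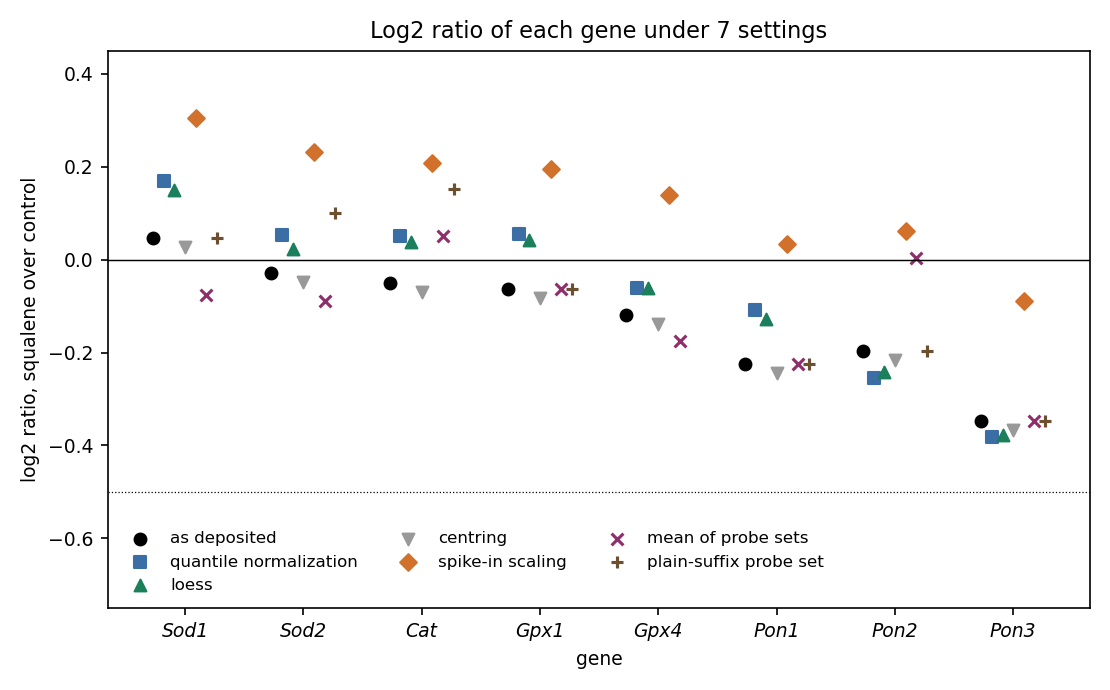
Log2 ratio of squalene over control (y axis) of each of the 8 genes (x axis) on the deposited scale and under 6 other settings, 1 array per pool, with a dotted line at -0.5. Spike-in scaling (orange diamonds) puts 7 genes above 0. Pon3 lies below 0 on each scale, between -0.38 and -0.09, and its single probe set makes the probe set choices identical.

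Other enzymes of superoxide and peroxide removal went both ways. Of 11 listed genes 7 were measured, 1 higher and 1 lower past 0.5, with a median log2 ratio of -0.24 beside 0.01 for all measured genes. Over all measured genes 11.3% were higher and 10.6% lower past 0.5. Gpx7, a peroxidase of the endoplasmic reticulum, read 21.1 and 43.3 (1.04), and Gpx5, known from the epididymis, read 40.3 and 11 (-1.87). Each of these was below the array median in 1 pool, and in the dimmest signal class the SD between probe sets was 1.04.

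The other measured relatives that are named here lay closer to 0. The mitochondrial peroxiredoxin Prdx3 read 687.1 and 897.8 (0.39). Prdx2, the cytosolic peroxiredoxin that red blood cells also hold in quantity, read 1508.5 and 1421.8 (-0.09). Prdx4, the peroxiredoxin of the endoplasmic reticulum, read 1404.6 and 1193.4 (-0.24), but 0.54 on another of its 3 probe sets. Gpx3, the plasma glutathione peroxidase, read 95.5 and 74.9 (-0.35), and Sod3, the extracellular dismutase, 44.5 and 33.7 (-0.40). Another Sod3 probe set, dimmer on average, read 69 and 3.7 (-4.22). Of the 4 members of this list that were read in both pools, 3 lay below 0, with a median of -0.16.

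Proteins that keep peroxidases reduced showed no common direction. Of 14 listed genes 12 were measured, 1 higher, 1 lower and 10 within 0.5, with a median of 0.04. Over all measured genes 11.3% were higher and 10.6% lower past 0.5, so these counts are not particular to the list. With both pools required to reach the array median, 0 were higher and 1 was lower. Txn1, the cytosolic thioredoxin that feeds peroxiredoxins, read 3734.4 and 3379.8 (-0.14). Gsr, which regenerates glutathione for Gpx1 and Gpx4, read 286.6 and 289.3 (0.01), but 131.4 and 194.5 (0.57) on its other probe set. Among the sestrins, stress-induced proteins of nutrient sensing, Sesn2 stood at 0.55, Sesn1 at -0.62 and Sesn3 at -0.50. Sesn2 was below the array median in the control pool (33.1 against 48.6), and the other 2 Sesn1 probe sets read -0.58 and 0.11. Srxn1, which repairs over-oxidised peroxiredoxins and is a classical NRF2 target, stood at -0.28 on its brightest of 4 probe sets, and the 4 lay on both sides of 0.

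Genes for the supply of metals and selenium to these enzymes read alike in both pools, while the supply itself was not measured. All 11 measured genes of 13 listed lay within 0.5, with a median of 0.08. Most genes did so: of those that reached the array median in both pools, as these 11 did, 14.2% lay past 0.5 in either direction. Ccs, the chaperone that loads copper onto Sod1, read 998.4 and 996.4 (0.00). Selenop, the liver-made carrier of selenium in plasma, read 14707 and 13011.7 (-0.18). Sephs2, which makes the selenium donor for selenoproteins such as Gpx1 and Gpx4, read 10585.1 and 10014.9 (-0.08). The most extreme were Trit1, a transfer RNA modifier (-0.39), Slc39a14, a zinc, iron and manganese importer (0.38), Eefsec, the elongation factor for selenocysteine (0.36), and Pstk, a kinase of selenocysteine synthesis (0.23).

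Of 19 listed genes for enzymes that produce superoxide or hydrogen peroxide, 11 were measured, 0 higher and 3 lower past 0.5, beside 11.3% higher and 10.6% lower over all measured genes. With both pools required to reach the array median, 2 of 10 were lower past 0.5, beside 410 of 6462 over all such genes. The median of the 11 was -0.18, which becomes 0.081 on the spike-in scale. Aox3, a hepatic aldehyde oxidase, read 3493 in the control pool and 2419.6 with squalene (-0.53), and its relative Aox1 read 820.3 and 580.7 (-0.50), just inside that limit. On the spike-in scale 0 genes of this list were lower past 0.5. Uox, the peroxisomal urate oxidase, read 8132 and 7962.6 (-0.03), and Xdh, the xanthine oxidoreductase, 185.9 and 247.4 (0.41).

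The membrane subunits of the phagocyte NADPH oxidase, which makes superoxide in macrophages and neutrophils, were both lower in the squalene pool. Cyba read 122.8 and 77.8 (-0.66), and Cybb 44.2 and 31.1 (-0.51), below the array median in the squalene pool. Nox4, an oxidase of other cell types, stood at 0.09. Macrophage and Kupffer cell markers moved with Cyba and Cybb: all 12 of 12 listed lay below 0, beside 49.3% of all measured genes, and 8 lay lower past 0.5, beside 10.6%. Marco, 1 of those 8, read 80.3 and 38.6 and was kept only through the control pool, which favoured a negative ratio. The 11 markers that reached the array median in both pools all lay below 0 as well. The median of all 12 was -0.68, none was at 0 signal, and their summed signal was 6964.1 in the control pool and 4520.6 with squalene. On the spike-in scale, tried for the marker lists after the data were seen, 11 lay below 0, beside 22.3% of all measured genes. On that scale 3 lay lower past 0.5, beside 387 of all 7354 measured genes, and the list median was -0.42. Stellate cell and matrix markers were lower too, with 5 of 5 measured below 0, 4 past 0.5 and a median of -0.71, or 4, 2 and -0.45 on the spike-in scale. Among them the smooth muscle actin gene Acta2 read 146.6 and 73.1, and the matrix proteoglycan gene Lum read 163.1 and 88.5 (-0.88). Of 7 measured endothelial markers 4 lay below 0, around a median of -0.01. The 2 past 0.5 went opposite ways, the sinusoidal lectin gene Clec4g at -0.73 and Stab1 at 0.53. Lower signal from fewer cells of a type and from less RNA per cell cannot be told apart in whole liver, and the part of these cells in the oxidase result was not tested. Of 6 neutrophil markers only S100a8 (-0.50) and S100a9 (-1.10) were measured, and S100a9 (54.1 against 25.2) was below the array median in the squalene pool.

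Genes for HDL partners of Pon1 differed little. All 14 listed genes were measured, and 1 was higher past 0.5, 0 lower and 13 within, with a median of -0.07. Among all genes that reached the array median in both pools, as these 14 did, 14.2% lay past 0.5 in either direction. Apart from Abcg1 and Pla2g7, the HDL partners lie in the brightest signal class, where that share was 6.07%. Small ratios are thus not particular to them. Apoa1, the main HDL protein that stabilises Pon1, read 20803.2 and 19892.3 (-0.06) on its brightest probe set, and between -0.16 and -0.04 on the other 3. Apom, which helps to form HDL, stood at -0.14, and Lcat, which esterifies HDL cholesterol, at -0.09. Of the serum amyloid A genes, whose products bind HDL, Saa1 lay below 0 on both probe sets (-0.06 and -0.18), while Saa2 (0.26) and Saa4 (0.32) lay above it. The only Saa2 probe set carries the suffix that marks possible cross-hybridisation, so its value may not be of Saa2 alone. Abcg1, which exports cholesterol to HDL, read 98.9 and 156.3 (0.66) and was the 1 gene past 0.5, and Pla2g7, an HDL- and LDL-borne phospholipase, read 45.7 and 57.7 (0.34).

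**Figure D4:**
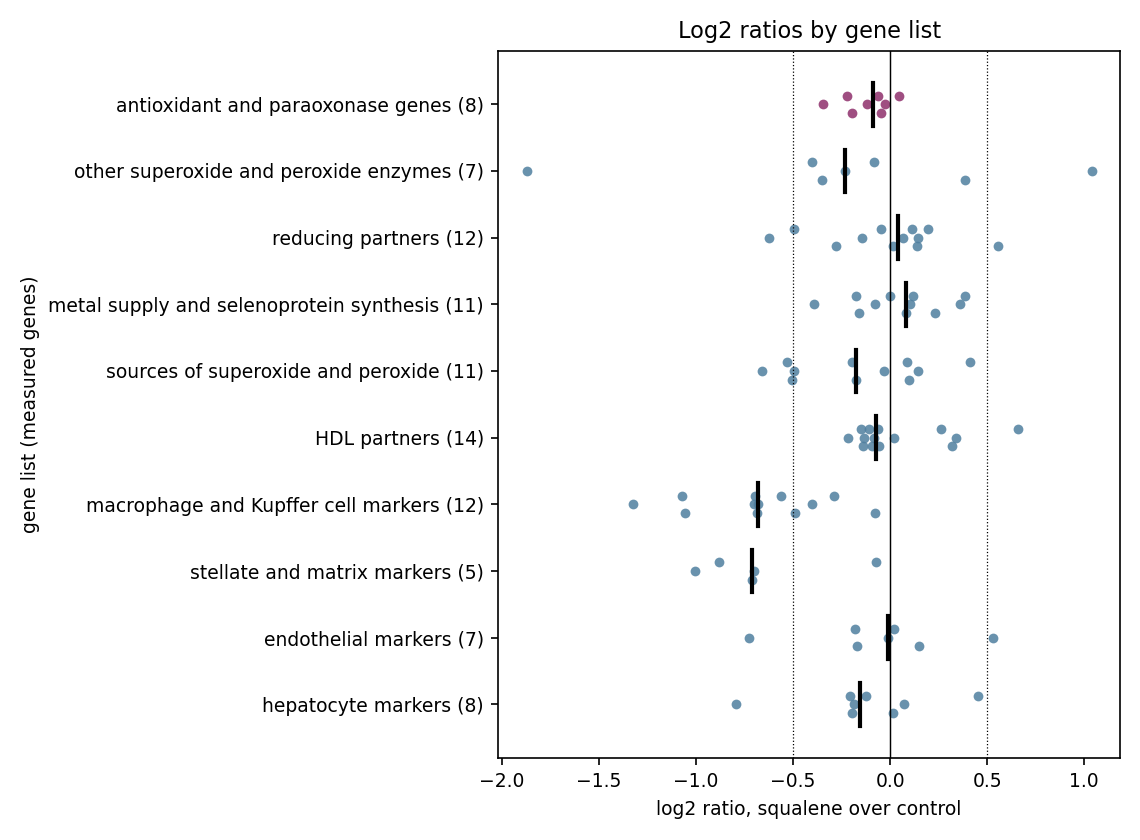
Log2 ratio of squalene over control (x axis) of each measured gene (dots) by gene list (y axis, number of measured genes in brackets), with the list median as a black bar and dotted lines at 0.5 and -0.5, 1 array per pool. The 8 antioxidant and paraoxonase genes lie between -0.35 and 0.05, while on this deposited scale all 12 macrophage and Kupffer cell markers and all 5 stellate and matrix markers lie below 0.

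Hepatocyte and blood markers give the setting for these values. Of 8 measured hepatocyte markers, 5 lay below 0 with a median of -0.16, and 1, the glucose-6-phosphatase gene G6pc (-0.80), was past 0.5. Of 7 red blood cell markers only Alas2 (102.6 against 73.9, -0.47) and Hba-a2 (30.5 against 41.8, 0.45) were measured. Hba-a2 was kept only through the squalene pool, which favoured a positive ratio, and in its signal class the SD between probe sets was 1.04. Its sign is thus not read against that of Alas2. Any share of red blood cell RNA in the signals of Cat, Gpx1 and Prdx2, which those cells also express, was not tested.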

How the data were processed

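Liver RNA of 1 control pool and 1 squalene pool was measured on Affymetrix mouse arrays. The deposited values are linear probe set intensities made with MAS5, per the submitters' processing notes; software version, scaling target and genome build are unstated in the labels. Groups came from the sample titles. Symbols came from the platform annotation: of 22690 probe sets, 64 are array controls, 20380 carry 1 symbol, 691 several and 1555 none, and 20351 of the single-symbol sets matched RefSeq by Entrez number. Of the 10 genes asked for, 9 have a RefSeq promoter.

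Log2 ratios of squalene over control were taken without a pseudocount. A gene was measured when its brightest single-symbol probe set reached the array median in at least 1 pool. Limits were 0.5 and, from the series text, 1.5. With 1 array per group no test was made, and the number of arrays limits the precision. Named genes were the 10 given genes, up to 4 measured genes with the largest ratios of each related list, and fixed defining genes; Sephs2, Nox4, Prdx4 and Saa1, and the spike-in scaling of the macrophage and stellate lists, were added after values were seen. The genes and lists were chosen with earlier results of these data known. Alternatives were centring, spike-in scaling, quantile normalization and loess (R 4.3.3, limma 3.58.1), adding 3 to signals, a floor at the median, other probe set choices, filters and limits. The steps were tested on simulated data. Python 3.11.15, numpy 2.4.6, pandas 2.3.3, scipy 1.17.1 and matplotlib 3.10.9 were used.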

Additional observations from a re-analysis of the deposited data

How the results depend on the processing

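Over the alternatives tried, 63 of 71 recomputed ratios of the 8 genes moved by less than the SD between probe sets of like signal. The rest moved under spike-in scaling, to 0.30 (Sod1), 0.23 (Sod2), 0.21 (Cat), 0.20 (Gpx1), 0.14 (Gpx4), 0.034 (Pon1) and -0.088 (Pon3), with a median of 0.17, and for Cat to 0.15 on the plain-suffix probe set. The count of 63 is no measure of stability, since many of these ratios could not move. The floor and the probe set nearest 0 left all 8 unchanged, and Gpx1, Pon1 and Pon3 have 1 probe set each. Pon2 counted as unmoved under spike-in scaling although it changed sign, from -0.20 to 0.06. A limit of 0.3 put 1 gene, Pon3, on the lower side, and no setting put any past 0.5. Gpx4 has no plain-suffix probe set. Spike-in scaling put 1891 measured genes higher and 387 lower past 0.5, and 142 higher past 1.5. With no filter 2666 genes were higher and 2454 lower past 0.5, and 974 and 905 past 1.5. With both pools at or above the median these were 507 and 410, and 5 and 3, and with genes at the 75th percentile or above in at least 1 pool 226 and 182, and 5 and 3. Spike-in scaling put the median of the reducing partners at 0.30, of metal and selenium genes at 0.34, of oxidant sources at 0.081 and of HDL partners at 0.19. It put 2, 2, 1 and 4 genes higher past 0.5 among the other peroxide enzymes, metal and selenium genes, oxidant sources and HDL partners, and 0 reducing partners and 0 oxidant sources lower. The lower count of reducing partners was 2 after centring, quantile normalization and loess, and their higher count was 0 after loess and with both pools read. With no filter the oxidant sources had a median of -0.35, with 1 higher and 7 lower, and the other peroxide enzymes 2 and 2, which became 0 and 0 with both pools read. No paired analysis was possible because each group has 1 array. Signals below the array median limit what can be said of Sod3, Gpx5, Gpx7 and the dim probe sets of Sod2 and Pon2. Apart from the shift that spike-in scaling adds by construction and the change in genes counted by filters, the causes were not tested.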
